A study of Mus musculus with 41 samples.

Results

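The histone genes were measured in the lungs and livers of mice that had inhaled titanium dioxide nanoparticles (nanoTiO2) and of control (air exposed) mice. Histone genes were taken as every non-control spot of the arrays whose gene name began with Hist, a digit and h, or with H2af or H3f. The rule found 60 of 43379 spots, which were 60 of 41174 probes and 43 of 27962 gene names. By the name of the protein they were 15 probes of 11 H2A genes, 10 probes of 8 H2B genes, 3 probes of 3 H3 genes, 8 probes of 6 H4 genes, 8 probes of 6 genes of the linker histone H1, 11 probes of 7 genes of H2A variants and 5 probes of 2 genes of H3 variants. Genes named in another way, such as H1f0 and Cenpa, were outside the rule and were counted apart.

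Histones are the small basic proteins around which DNA is wound: H2A, H2B, H3 and H4 form the core of the nucleosome and H1 binds the DNA between cores. The genes named Hist are mostly replication-dependent. They lie in clusters, lack introns, are transcribed as DNA is copied, and most of their mRNAs end in a conserved stem-loop in place of a poly(A) tail. The variant genes (H2af and H3f) are mostly expressed outside S phase as well and give polyadenylated mRNA, and their proteins replace the core histones at particular places in the genome. Histones stand in the systemic lupus erythematosus pathway named by the study, since they are autoantigens in that disease.

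The animals were female mice, C57BL/6 in the labels and C57BL/6BomTac in the study's methods, time-mated nulliparous females that did not conceive, for which the age label gives only equivalence to GD4. Exposed mice inhaled 40 mg/m3 nanoTiO2 for 1 hr per day on 11 days and control mice inhaled air with 0 mg/m3, and tissue was taken 5 days after the last exposure. Lung arrays were from 7 exposed and 6 control mice, and liver arrays from 7 exposed and 8 control mice. Each array carried linearly amplified RNA of 1 mouse in Cy5 and a universal mouse reference RNA, pooled from 11 cell lines, in Cy3, and dyes were not swapped. The methods do not state how cDNA was primed. How far mRNAs without a poly(A) tail were labelled is not known and was not tested, which limits the values of the Hist genes. All values below are log2 ratios of Cy5 over Cy3 unless another quantity is named, and a log2 difference of 1 is a 2-fold change. Since whole tissue was extracted, fewer cells of a type and less RNA per cell cannot be told apart.

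Exposed samples always lay at the first 2 positions of a slide and control samples at the last 2, so exposure and place on the slide cannot be told apart. Lung and liver arrays were hybridized on different slides (4 for each tissue) and read with different versions of the scanner software, so that tissue, slide and software version cannot be told apart either. Between 61.3% and 67.5% of probes on a lung array and between 55.1% and 70.5% on a liver array were well above background in Cy5. All 12 probes of the lung marker list were higher in control lung than in control liver (median log2 difference 4.52), and all 7 probes of the liver marker list were lower (median -5.47). Liver markers had a mean log2 ratio of 0.57 to 2.45 on the exposed and of 0.35 to 1.06 on the control lung arrays.

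The histone probes were detected more often than the probes of the array at large. Of the 60, 47 (78.3%) were well above background on all 28 arrays, against 47.5% of all probes, and 4 were above it on none. These 4 were single probes of Hist1h2ac, H2afz, Hist4h4 and Hist1h1d, the last 3 of which had another probe that was detected on every array. No histone probe was saturated. Outlier marks of the scanner software took out at least 1 array for 28 of the probes, which is why n below is at times lower than the number of arrays.

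Several histone probes cannot be assigned to a single gene with certainty. There were 18 pairs of probes of different genes that shared an unbroken run of 15 or more bases, and these pairs held 19 probes of 17 genes. The following probes of H2B, the class with the lowest median in lung against liver, are shown because they differ at 2 (Hist1h2bk) and 4 (Hist3h2bb) bases from the Hist1h2bm probe over the aligned 60 and 58 bases, and their values below were almost the same. Capitals mark bases that differ from the Hist1h2bm probe, and the probes lie in build mm7 at chr13:21088259-21088318 (plus strand), chr13:21402048-21402107 (plus strand) and chr11:59035740-59035799 (minus strand).
Hist1h2bm: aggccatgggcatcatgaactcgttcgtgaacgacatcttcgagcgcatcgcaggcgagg
Hist1h2bk: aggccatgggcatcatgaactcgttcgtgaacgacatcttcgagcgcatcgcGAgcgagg
Hist3h2bb: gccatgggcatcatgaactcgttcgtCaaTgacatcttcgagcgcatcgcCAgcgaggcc

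A second set is shown because 2 H2A genes share most of a probe. The probes of Hist1h2aa (mm7 chr13:23300592-23300651, plus strand) and Hist1h2af (mm7 chr13:22900228-22900287, plus strand) had the same first 44 bases, which are in capitals.
Hist1h2aa: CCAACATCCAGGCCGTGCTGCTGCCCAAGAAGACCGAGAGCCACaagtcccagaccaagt
Hist1h2af: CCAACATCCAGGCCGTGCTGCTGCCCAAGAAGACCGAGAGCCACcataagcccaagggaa

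Whether nanoTiO2 inhalation changed histone mRNA in the lung was examined first. None of the 60 histone probes passed the test between exposed and control lungs. The background was low as well, since 83 of 41155 probes (0.202%) passed an adjusted p of 0.05 in limma (were called), 74 of them higher and 9 lower in exposed mice. The lowest adjusted p of a histone probe was 0.661. Before adjustment 2 histone probes (both H2afz) were under the same threshold in limma, against 2934 probes (7.13%) in all, and for no histone probe were the exposed and control values apart, which was the case for 0.598% of all probes. Log2 differences of the histone probes (exposed minus control) ran from -0.19 to 0.18 with a median of -0.01, and 26 were above and 34 below 0. The median over all probes was 0.00.

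**Figure D1:**
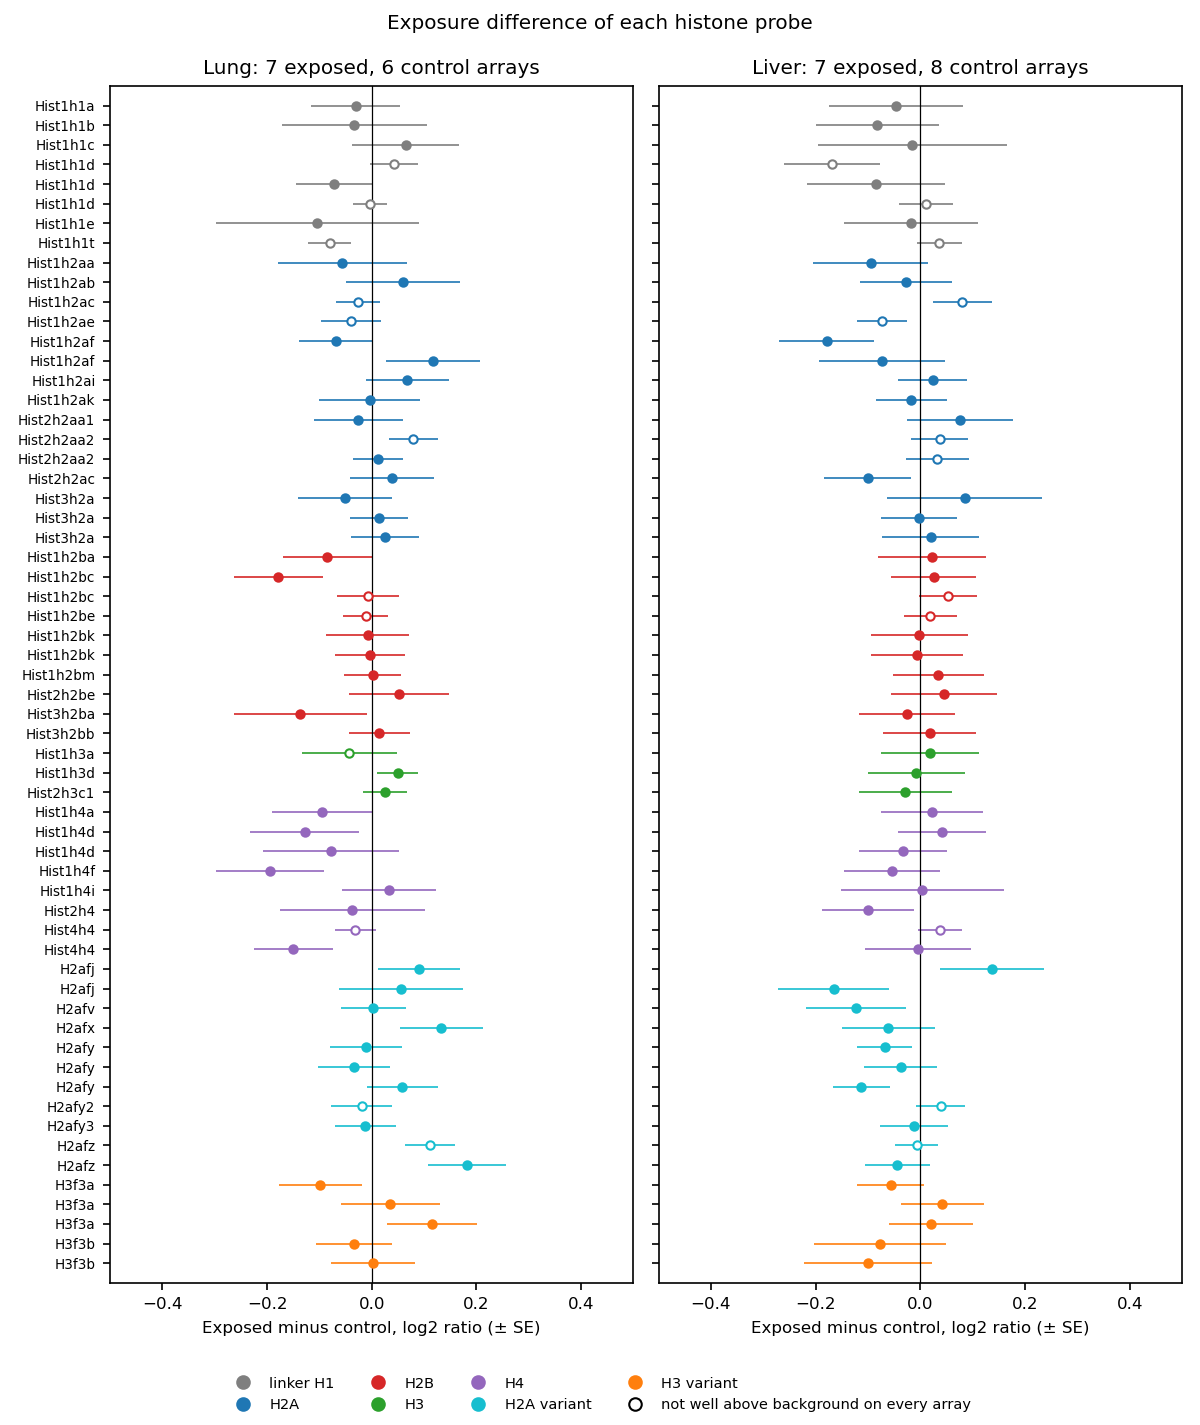
Difference of each of the 60 histone probes between nanoTiO2-exposed and control mice, as log2 difference with its standard error, in lung (7 against 6 arrays) and liver (7 against 8 arrays), by histone class. Open symbols mark probes that were not well above background on every array of the tissue; every difference lies between -0.19 and 0.18 in the lung and between -0.18 and 0.14 in the liver.

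The largest increase in lung among the well detected probes belonged to H2afz, which codes for H2A.Z, a variant placed at promoters and enhancers. Its log2 ratio (probe A_52_P468268, mm7 chr3:137674646-137674705) was lowest at -1.76, at the median -1.51 and highest at -1.36 in 5 control lungs, and lowest at -1.57, at the median -1.32 and highest at -1.18 in 7 exposed lungs. The groups overlapped, although 6 of 7 exposed lungs were above the control mean. The log2 difference was 0.18 ± 0.07 (SE), or 1.13-fold, with an unadjusted p of 0.0292 and an adjusted p of 0.661 in limma and 0.048 in the exact two-sided permutation test. Within the 3 slides that held both groups it was 0.17, 0.19 and 0.07. In the liver it was -0.04, and the lung difference minus the liver difference was 0.23 (limma, unadjusted p = 0.0315, adjusted p = 1). The other probe named H2afz, at mm7 chr6:116197660-116197719 on another chromosome than the gene's main probe, was not well above background on any array (difference 0.11, limma unadjusted p = 0.0332, adjusted p = 0.661).

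The next highest was H2afx, whose protein H2A.X is phosphorylated at DNA double-strand breaks. Its log2 ratio ran from -2.08 through a median of -1.98 to -1.59 in control lungs (n = 6) and from -1.97 through -1.78 to -1.58 in exposed lungs (n = 7). The values overlapped, and the difference of 0.13 ± 0.08 (SE) did not pass the test (limma, adjusted p = 0.767). Further differences among the 5 highest were 0.12 for the second Hist1h2af probe (A_52_P498210), 0.12 for an H3f3a probe (A_52_P76734) and 0.09 for an H2afj probe (A_52_P286488), none of which passed.

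At the other end stood core histone genes of H4 and H2B. Hist1h4f had a log2 ratio of -0.62, -0.58 and -0.35 in the 3 control lungs with a usable spot, and of -0.91 to -0.47 with a median of -0.71 in 6 exposed lungs. The ranges overlapped, and the difference of -0.19 ± 0.10 (SE) shrank to -0.12 when marked spots were kept, which gave all 13 arrays a value. Hist1h2bc ran from 1.71 through a median of 1.78 to 2.19 in control lungs (n = 6) and from 1.42 through 1.72 to 1.85 in exposed lungs (n = 7). None of the exposed lungs was above the control mean, but the groups overlapped, and the difference of -0.18 ± 0.08 (SE) had an unadjusted p of 0.0528 and an adjusted p of 0.70 in limma and an exact permutation p of 0.0927. Within slides it was -0.12, -0.34 and 0.07. Hist4h4 (-0.15), Hist3h2ba (-0.14) and Hist1h4d (-0.13) completed the 5 lowest.

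By class, the lung differences were spread around 0. The H4 probes had the lowest median, -0.09, with 7 of 8 below 0, and the H2A variants the highest, 0.06, with 7 of 11 above 0. Medians were 0.01 for H2A, -0.01 for H2B, 0.03 for H3, 0.00 for H3 variants and -0.03 for linker H1. Together the 44 probes of genes named Hist had a median of -0.02 (16 above and 28 below 0) and the 16 variant probes of 0.02 (10 above and 6 below 0), with none called in either set. Both sets were made by gene name, and genes named Hist are not all replication-dependent. These medians are descriptions, since probes of related genes share sequence.

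The 95% intervals set bounds on the lung change that could have been missed for the histone probes. Of the 48 probes well above background on all lung arrays, the largest difference was 1.14-fold, and 47 had a 95% interval that lay wholly within ±0.5 on the log2 scale. The widest bounds over the 48 probes were -0.52 and 0.34. The number of arrays limits this precision, and the intervals are per probe, without adjustment for the number of probes. They hold only for values normalized by loess. With median centering in its place Hist1h4d (A_51_P136097) was 0.25, outside its interval of -0.35 to 0.10. The lung differences of C1r (0.39) and Foxj1 (0.30), which were called, were smaller than 0.5. Changes of such size lay within the intervals of some histone probes.

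In the liver no probe on the array passed the adjusted threshold in limma (0 of 41143, 0%), and 1040 probes (2.53%) had an unadjusted p under 0.05, none of them a histone probe. The liver differences of the histone probes ran from -0.18 to 0.14 with a median of -0.01, against 0.00 for all probes, and 25 were above and 35 below 0. No histone probe had exposed and control values apart, against 0.173% of all probes. The highest were an H2afj probe (0.14 ± 0.10 SE), the Hist3h2a probe A_51_P441377 (0.08) and Hist2h2aa1 (0.08), and the lowest were Hist1h2af (-0.18 ± 0.09 SE), the other H2afj probe (-0.17) and H2afv (-0.12). H2afj thus had 1 probe among the highest and 1 among the lowest. H2A variants were below 0 in 9 of 11 probes with a median of -0.04, and H4 had a median of 0.00. Of the 48 probes well above background on all liver arrays the largest difference was 1.13-fold, and all 48 intervals lay within ±0.5, with bounds from -0.40 to 0.40. These intervals also hold only with loess. With median centering H2afv (0.17), H2afj (A_52_P407692, 0.16) and Hist1h2af (A_52_P165633, 0.12) lay above theirs.

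**Figure D2:**
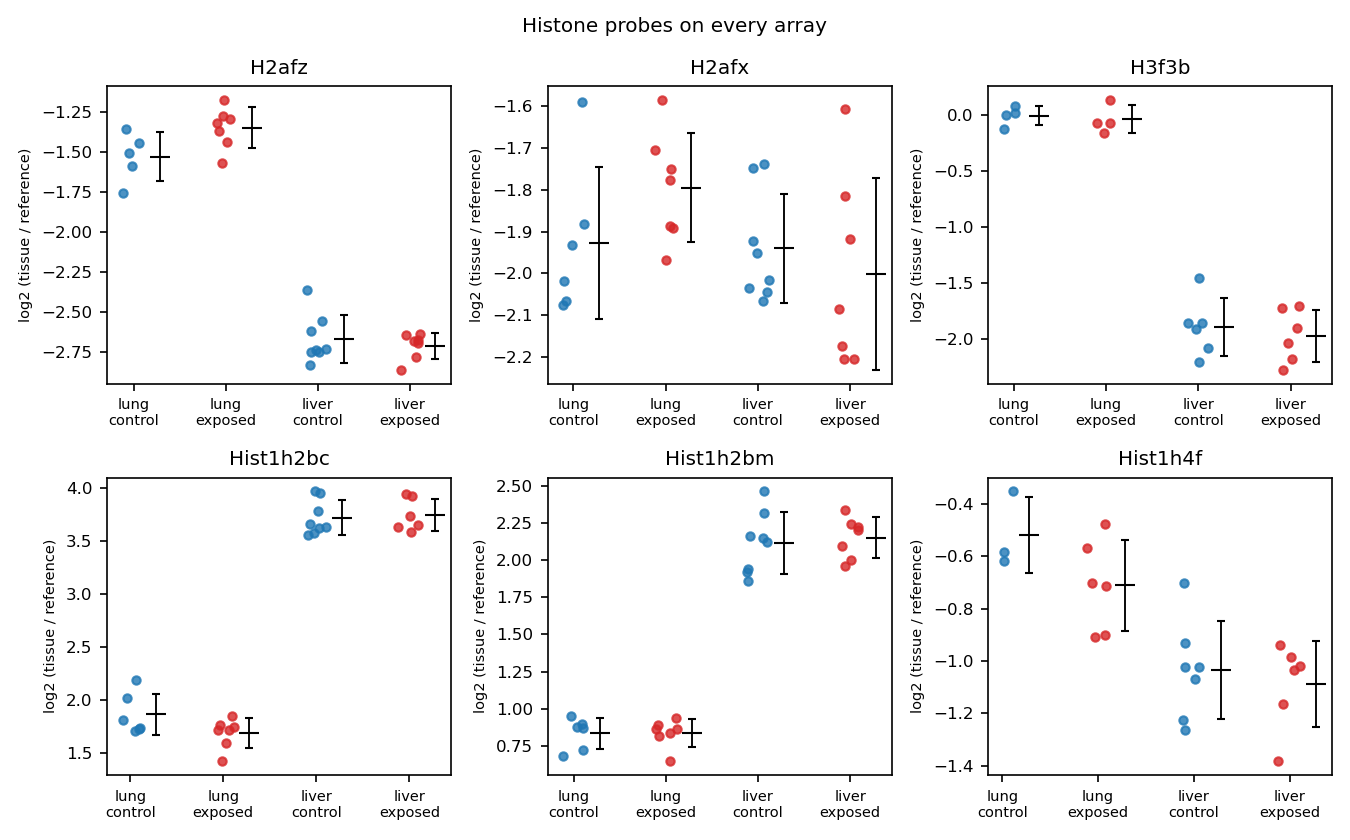
Log2 ratio (tissue RNA in Cy5 over reference RNA in Cy3) of 6 histone probes on each array, with mean and SD, in control and nanoTiO2-exposed lung and in control and exposed liver. In each panel exposed and control values of a tissue overlap, while lung and liver values are apart for all but H2afx and Hist1h4f.

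The lung and liver responses were also compared with each other. The difference between the 2 exposure effects was called for 58 of 41125 probes (0.141%) and for no histone probe, with 1 histone probe (H2afz) under an unadjusted p of 0.05 in limma, against 4.3% of all probes. Histone differences of this kind ran from -0.20 to 0.23 with a median of 0.01. For the 12 mice that by their number gave both tissues, the fit with mouse as a block called 57 probes and again no histone probe.

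Gene groups that act with histones were counted by probe, without a test of the groups. None of 23 probes of 13 genes for histone mRNA processing (such as Slbp, which binds the stem-loop), of 41 probes of 22 histone chaperone genes, of 41 probes of 28 cell division genes or of 11 probes of 6 other histone genes was called in the lung, the liver or the difference. Over all probes the shares called were 0.202%, 0% and 0.141%, so the absence of calls in lists of this size says little. The median lung differences of the lists were -0.03, -0.01, 0.03 and 0.05. The cell division list had 29 of 41 probes above 0 in the lung and 11 of 41 in the liver.

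A few other members of the lupus pathway were called in the lung, with adjusted p-values near the threshold. Most fits that left out 1 array no longer called them, while the differences changed little. Of 76 probes of 48 such genes, 2 were called higher and none lower, against 0.202% of all probes. C3, the central complement component, was higher by 0.54 ± 0.09 (SE) or 1.45-fold (limma, adjusted p = 0.0318). C1r, a protease of the first complement complex, was higher by 0.39 ± 0.07 (SE) or 1.31-fold (limma, adjusted p = 0.0474). In the 13 fits that left out 1 lung array the difference was 0.49 to 0.60 for C3 and 0.36 to 0.44 for C1r, but C3 was called in 4 of them and C1r in 1. Of all 23 alternatives, 11 called C3 and 5 called C1r. The study also reported C3 as higher by real time RT-PCR and on its PCR array. C3 (0.78) and both probes of C1s (0.46 and 0.54) were called in the difference between lung and liver as well. C3 was called there in 7 of 10 alternatives, and the C1s probes in 6 (A_51_P208793, 0.24 to 0.52) and 4 (A_52_P634218, 0.15 to 0.70). Other lists moved with these genes. The 7 liver marker probes were all above 0 in the lung comparison with a median of 0.62, none of them called, and liver makes much of the complement of plasma. Of 16 macrophage marker probes, Mmp12 (0.67), Marco (0.57) and Msr1 (0.52) rose and Siglecf fell by 0.70, calls that held in 21, 19, 16 and 20 of the 23 alternatives. Foxj1, of ciliated cells, was called at 0.30 (1.23-fold) but in only 6 of the 23, with differences from -0.32 to 0.47, and no probe of the neutrophil, lymphocyte or erythroid lists was called. Their part in the complement values was not tested.

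The reference channel, which should be alike on all arrays, was tested as log2 Cy3 signal. That signal was taken after loess within arrays and quantile normalization of the mean intensity of both dyes between arrays. Since that processing used both dyes, the Cy3 values are not wholly free of Cy5. In Cy3, 2 of 41155 probes (0.00486%) differed between the exposed and control lung arrays and 0 of 41143 between the liver arrays, and no histone probe was among them (limma, lowest adjusted p of a histone probe 0.965 and 1). At an unadjusted p under 0.05 in limma there were 4 and 6 of 60 histone probes, against 4.16% and 3.72% of all probes.

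Control lung and control liver differed in many histone genes. Of the 60 probes, 43 (71.7%) passed the test, 28 higher and 15 lower in the lung, against 59.6% of all probes, of which 30% were higher and 29.7% lower. More than 2-fold differences were called for 15 of 60 histone probes, against 18.5% of all probes. Control values were apart between the tissues for 31 of 60 histone probes, against 41.3% of all probes. The median difference (lung minus liver) was 0.13 for the histone probes and -0.02 for all probes. With median centering in place of loess 23 histone probes were called, against 51.1% of all probes. The 9 H2B probes called (3 higher and 6 lower) made up 9 of these 23, while the calls of H2A went from 7 to 3, of H2A variants from 7 to 3, of linker H1 from 5 to 4, of H3.3 from 5 to 2, of H4 from 7 to 2 and of H3 from 3 to 0. The reference channel differed between lung and liver arrays too, for 45.9% of all probes and 37 histone probes, by -1.28 to 0.31. The Cy5 signal without division by the reference was therefore computed as well. It came from the same normalization over both dyes, so Cy5 alone is not wholly free of the reference. By Cy5 alone 44 histone probes were called, against 62.9% of all probes, and 33 were called both ways in the same direction, 20 higher and 13 lower in lung, against 52.5% of all probes.

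**Figure D3:**
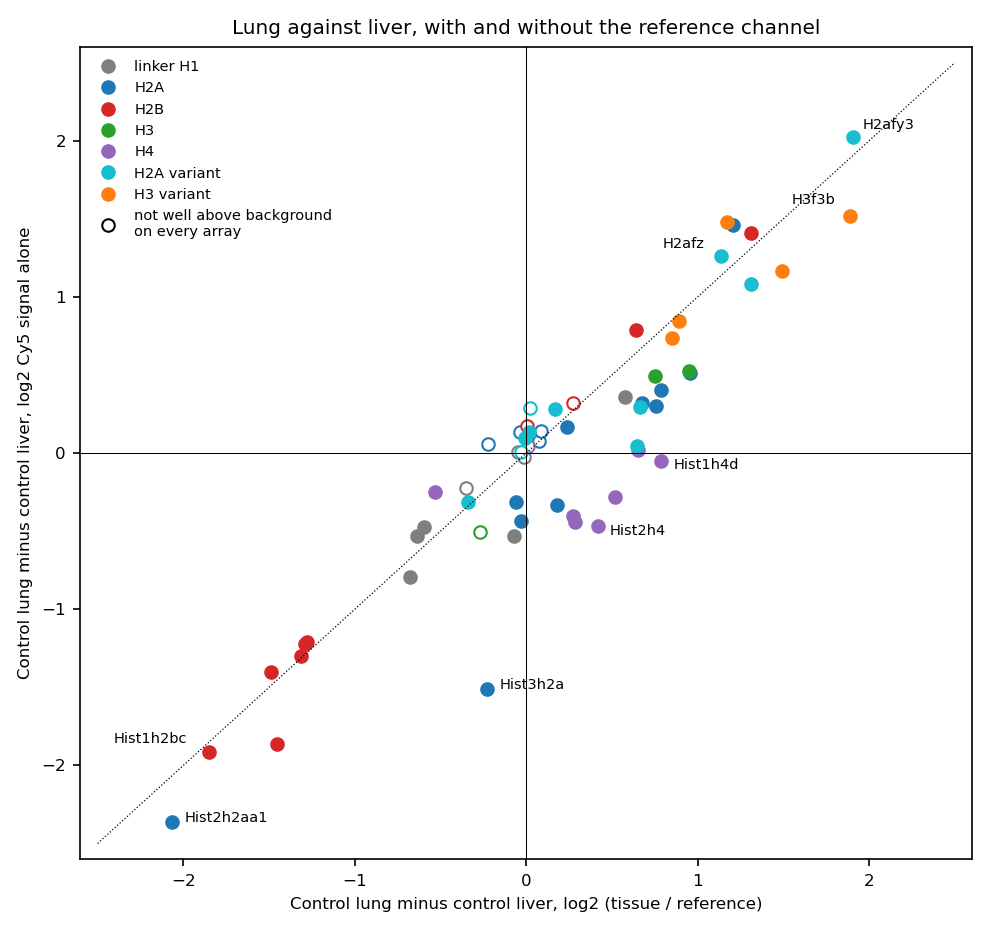
Difference between control lung and control liver for each of the 60 histone probes, by the log2 ratio to the reference RNA (horizontal axis) and by the log2 Cy5 signal alone (vertical axis), by histone class. H2B probes lie at both ends near the diagonal, and most H4 probes lie below it, with a ratio difference above 0 and a Cy5 difference near or below 0; open symbols mark probes not well above background on every array.

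The variant histones were mostly higher in lung. All 5 probes of the H3.3 genes were called higher by the ratio and by Cy5 alone; H3.3 is the replacement H3 laid down outside DNA replication. H3f3b (A_51_P164667) had log2 ratios of -0.13 to 0.08 with a median of 0.01 in 4 control lungs and of -2.20 to -1.45 with a median of -1.89 in 6 control livers. The tissues did not overlap, and the difference was 1.89 ± 0.12 (SE), 3.70-fold (limma, adjusted p = 9.69e-12), and 1.52 by Cy5 alone. The other H3f3b probe gave 1.17 and the 3 H3f3a probes 1.49, 0.89 and 0.85. The size thus varied between probes of a gene, and with median centering the median of the 5 fell from 1.17 to 0.32.

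Among the H2A variants the largest difference was that of H2afy3, listed now as Macroh2a3 and placed by name with the macroH2A genes, whose proteins carry an extra domain. It ran from -0.48 through a median of -0.39 to -0.11 in control lungs (n = 6) and from -2.45 through -2.24 to -2.04 in control livers (n = 8). It was higher in lung in 12 of 12 mice paired by number. The difference of 1.90 ± 0.06 (SE) was 3.74-fold (limma, adjusted p = 3.53e-21), and it was 2.02 by Cy5 alone. H2afz ran from -1.76 to -1.36 in control lungs (n = 5) and from -2.83 through a median of -2.74 to -2.37 in control livers (n = 8), a difference of 1.14 or 2.20-fold that was 1.26 by Cy5 alone. With median centering the H2afz difference was 0.46 and not called (limma, adjusted p = 0.0727). H2afj was 1.31 higher by probe A_52_P286488 and 0.66 by A_52_P407692, with 1.08 and 0.29 by Cy5 alone. With median centering in place of loess A_52_P407692 was -0.79 and called lower in lung (limma, adjusted p = 5.33e-05), and the median of the H2A variants went from 0.17 to -0.04.

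Not every variant was higher. H2afx was 0.01 apart (limma, adjusted p = 0.911), with a median of -1.98 in both control groups. Its difference was 0.24 with the scanner's processed signals and 0.22 with the authors' table, both called (limma, adjusted p = 0.0243 and 0.0295). With median centering it was -0.28 and not called. The 3 probes of H2afy, which codes for macroH2A1, gave -0.01, 0.17 and -0.34, and the last 2 were called in opposite directions by the ratio (limma, adjusted p = 0.0487 and 1.96e-05). With mouse as a block the probe at 0.17 (A_52_P179238) was 0.11 and not called (limma, adjusted p = 0.13). H2afv, a close relative of H2afz, was 0.65 higher by the ratio (limma, adjusted p = 4.4e-07) but 0.05 by Cy5 alone, where it was not called, beside a Cy3 difference of -0.60. H2afy2 (macroH2A2) was well above background on 5 of 13 lung arrays and 0 of 15 liver arrays and was not called by the ratio (0.02). By Cy5 alone it was 0.29 and with the scanner's processed signals 0.91, both called (limma, adjusted p = 1.76e-05 and 0.00154). With background fitted on all spots, without background correction and with the authors' table it was below 0 and not called. With marked spots kept and with mouse as a block it stayed at 0.02 and was not called.

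H2B genes split between the tissues. By the ratio 6 H2B probes were lower in lung and 3 higher, of 10, and the same 9 were called by Cy5 alone in the same directions. Hist1h2bc (A_51_P462311, mm7 chr13:23058152-23058211) ran from 1.71 to 2.19 in control lungs (n = 6) and from 3.55 through a median of 3.65 to 3.97 in control livers (n = 8), without overlap. The difference was -1.85 ± 0.08 (SE), a 3.61-fold lower ratio in lung (limma, adjusted p = 1.68e-17), and it was -1.91 by Cy5 alone. The ratio was lower in lung in 12 of 12 mice paired by number. Hist1h2ba, the testis H2B, differed by -1.49. The Hist1h2bm, Hist1h2bk and Hist3h2bb probes printed above gave -1.28, -1.29 and -1.31, and since they differ at so few bases, these 3 values cannot be taken as 3 separate genes. The second Hist1h2bk probe gave -1.46.

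Higher in lung were Hist3h2ba (1.31 ± 0.12 SE) and Hist2h2be (0.64 ± 0.10 SE), and, by a probe that was well above background on 5 lung arrays and no liver array, Hist1h2be (0.27). Hist3h2ba ran from 0.65 through a median of 0.88 to 1.53 in control lungs (n = 6) and from -0.49 through -0.26 to -0.17 in control livers (n = 7). Hist2h2be ran from 0.11 through 0.28 to 0.70 in control lungs (n = 6) and from -0.61 through -0.26 to -0.05 in control livers (n = 8). In both genes the tissues were apart, and neither probe shared a run of 15 or more bases with the probe of another histone gene.

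H2A genes were split as well. Hist2h2aa1 was the lowest of all histone probes in lung against liver. Its log2 ratio ran from -0.49 through -0.43 to -0.17 in control lungs (n = 5) and from 1.30 through 1.67 to 2.01 in control livers (n = 8), apart by -2.07 ± 0.10 (SE), or 4.19-fold lower in lung (limma, adjusted p = 1.59e-16). The near-identical copy Hist2h2aa2 had 2 probes, of -0.03 and 0.09, that were dim on most liver arrays, so that signal cannot be divided between the copies. Hist3h2a was higher in lung by 1.21 (A_52_P615375) and 0.79 (A_52_P184352). The remaining probe of that name (A_51_P441377) lies on the opposite strand, at mm7 chr11:59036261-59036320, minus strand, and gave -0.23 by the ratio but -1.51 by Cy5 alone, beside a Cy3 difference of -1.28. Hist2h2ac was 0.68 higher and Hist1h2af (A_52_P165633) 0.95 higher, the latter over 2 control lungs and 6 control livers. With median centering Hist1h2af was -0.20, and the H2A probes called higher in lung went from 5 to 1.

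For H4 the direction depended on the measure. By the ratio 6 of 8 probes were called higher in lung, from 0.27 to 0.79, and Hist1h4i lower (-0.53). By Cy5 alone no H4 probe was called higher and 4 were called lower: Hist1h4a (-0.44), Hist1h4f (-0.28), Hist2h4 (-0.47) and Hist4h4 (-0.41), which were 4 of the 6 that the ratio called higher. The Cy3 signal of the H4 probes was lower on lung than on liver arrays, with a median of -0.70. No other histone probe was called in opposite directions by the 2 measures. Probes of Hist1h4d and Hist1h4f shared 50 bases.

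All 3 H3 probes were called, against 59.6% of all probes. Hist2h3c1 (0.95) and Hist1h3d (0.75) were higher and Hist1h3a (-0.27) lower in lung, each called by Cy5 alone in the same direction. Of the H1 genes, Hist1h1a (-0.68), Hist1h1b (-0.60) and Hist1h1d (-0.64) were lower in lung and Hist1h1e was higher (0.58), while Hist1h1c, the brightest H1 probe, was not called by the ratio (-0.07; limma, adjusted p = 0.724) but was called with mouse as a block (-0.27; limma, adjusted p = 0.0483) and by Cy5 alone (-0.53; limma, adjusted p = 0.00661). Hist1h1b ran from -3.22 through -2.64 to -2.43 in control lungs (n = 6) and from -2.55 through -2.11 to -1.81 in control livers (n = 8), so that the tissues overlapped. In comparison, the cell division list had 17 of 41 probes called higher and 8 lower in lung, against 30% and 29.7% of all probes. Its median was 0.11, against -0.02 for all probes.

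Set against the reference RNA of growing cell lines, most histone genes were lower in both tissues. In control lung, 34 of the 49 probes well above background on all arrays of the group were below the reference, against 10805 of all 23648 such probes. More than 2-fold below it were 14 (28.6%), against 2377 of the 23648. In control liver 37 of 48 were below the reference, against 10083 of all 21433 such probes, and 26 (54.2%) were more than 2-fold below it, against 14.4%. H2B was the exception, since its 8 detected probes were all above the reference in lung (median 0.83). In liver 6 of 8 were more than 2-fold above it and 2 were below it (median 2.12). H2A had medians of -1.34 in lung and -1.87 in liver, and H4 of -0.62 and -1.03. A ratio to a reference says nothing of the level of one gene against another.

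The 3′ stem-loop of replication-dependent histone mRNA was searched for as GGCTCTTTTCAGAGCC on the probe strand, because it shows which end of the message a probe reports on. Of 41174 probes, 1 held the whole motif, that of Hist1h3a, and those of Hist1h2ab and Hist1h2ae held its first 11 and last 12 bases at their ends. The Hist1h2ae probe continues for 48 bases past the motif, beyond the usual end of the message, and was well above background on 5 of 13 lung and 2 of 15 liver arrays. Windows of 30 bases are shown, with the motif in capitals, from probes at mm7 chr13:23127689-23127748 (minus strand), chr13:23117325-23117384 (plus strand) and chr13:22936613-22936672 (minus strand).
Hist1h3a: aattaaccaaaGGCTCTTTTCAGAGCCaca
Hist1h2ab: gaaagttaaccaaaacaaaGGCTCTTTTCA
Hist1h2ae: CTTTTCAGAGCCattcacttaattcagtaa

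Promoters were searched in RefSeq sequence of build GRCm38.p6, over 300 bases from 250 before to 50 after each start, on both strands. CCAAT was found for 32 of 36 histone genes with a promoter in the table (88.9%), against 41.1% of 27025 genes, and TATAAA for 20 of 36 (55.6%), against 15.7%. TATAAA was held by 19 of 29 genes named Hist and by 1 of 7 variant genes. These matches are descriptions of sequence.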

How the data were processed

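Lung and liver RNA of 28 arrays was analysed, each from a separate mouse within its tissue. The authors deposited scanner output with median spot and background intensity values of both dyes (Agilent Feature Extraction 9.5.3.1 for lung and 10.1.1.1 for liver, per the labels and files; probe positions in build mm7), and a table of processed values. The authors made its log2 ratios by LOWESS normalization before they were deposited, and it was used here as an alternative. It correlated with ratios made without background correction at 0.9936 to 0.9978 per array. Slopes of 0.988 to 0.997 on those ratios set its direction and its log2 scale, and its column medians were -0.04506 to -0.02321; how it was centred is not given in the sources used here. The methods' MAANOVA was replaced by limma.

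Intensity values were corrected by normexp (offset 50), fitted without the spots that carried an outlier mark, and normalized by loess within arrays. Control and marked spots were left out and spots of a probe averaged. Tests were made by lmFit and eBayes (limma 3.58.1, statmod 1.5.0, R 4.3.3, data.table version 1.17.8), two-sided, with Benjamini-Hochberg adjustment over all probes and a threshold of 0.05. Single probes also had an exact permutation test (1716 splits of lung arrays, smallest p 0.00117). The scripts were tested on simulated data. Figures were drawn with Python 3.11.15, pandas 2.3.3 and matplotlib 3.10.9.

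The number in the sample titles was taken to pair lung and liver arrays of 12 animals, but the titles do not say that it names an animal. Numbers 12, 20 and 23 stand for exposed mice here and for controls in the miRNA titles. Deviations of the paired arrays from their group means correlated at -0.13 to 0.338 (median 0.105). No pair of arrays was identical (highest correlation 0.9898). The p-values rest on the spread between mice.

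Named were all H2af and H3f genes, the brightest probe of each class in each tissue, the 5 highest and 5 lowest lung, 3 highest and 3 lowest liver and 5 highest and 5 lowest tissue differences among well detected probes, any histone probe called in an exposure comparison, and called genes of the other lists. Other genes of the tissue comparison were chosen after their values were seen. Members and lists were chosen with earlier results of these data known. Alternatives were other background corrections and normalizations, the authors' processed values, a filter on dim probes, 1 value per gene, slide or mouse as a block, and leaving out each array. Cy5 alone, marked spots kept and, across tissues, slide as a random block were chosen after seeing the data. The miRNA arrays were not used here. All 43 gene names were matched to RefSeq genes. Current symbols and promoters are from GRCm38.p6, whose coordinates were not used.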

Additional observations from a re-analysis of the deposited data

Results flagged for a closer look

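In 6 of 99 groups of arrays (26 named probes), 1 array lay far from the others of its group by Dixon's criterion; chance gives about 1 group in 20. The H3f3a probe A_51_P456237 had a log2 ratio of -0.8703 in the liver of exposed mouse 20, where the other 6 livers ran from -1.16 to -1.06, and of -0.6869 in the liver of control mouse 27, where the others ran from -1.16 to -0.96. The Hist1h2bm probe was at 0.6457 in the lung of exposed mouse 20, below the other lungs of that group (0.81 to 0.94). H2afy2 was at -0.4528 in the liver of control mouse 27, below the others (-0.34 to -0.24), on a probe that was well above background on no liver array. The Hist1h2af probe A_52_P498210 was at -2.924 in the lung of control mouse 26, above the others (-3.44 to -3.26), and Hist2h2aa1 was at -0.1734 in the lung of control mouse 34, above the other 4 (-0.49 to -0.40). No mouse held more than 2 such values in 1 tissue.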

How the results depend on the processing

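No histone probe was called in the lung, the liver or their difference under any alternative run. Each array was left out in turn for the lung, the liver and the tissue comparison, not for the difference between the exposure effects. The probes called in the lung among all probes numbered 12 with background fitted on all spots, 4 with median centering, 133 with slide as a random block, and 64 to 81 when 1 array was left out; those in the lung minus liver difference numbered 5 with background fitted on all spots, 31 with the scanner's processed signals, 12 with median centering and 57 with mouse as the replicate block. The median lung histone difference became 0.053 with median centering. In the tissue comparison 23 histone probes were called with median centering, 42 with the mouse block and 40 to 44 with 1 array left out, and the median histone difference was 0.076 (background on all spots), 0.39 (processed signals), -0.029 (median centering), 0.25 (dim probes left out), 0.052 (Cy5 alone) and 0.080 to 0.14 (1 array left out).

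Some named differences changed sign. With background fitted on all spots they were H2afj (-0.18) in lung, Hist3h2a (-0.015) in liver, and H2afy (0.056), H2afy2 (-0.045) and Hist1h1c (0.084) between tissues. With median centering they were Hist1h4d (0.25) in lung, H2afv (0.17), H2afj (0.16) and Hist1h2af (0.12) in liver, H2afz (-0.001733) in the difference of effects, and H2afj (-0.79), H2afv (-0.18), H2afx (-0.28) and Hist1h2af (-0.20) between tissues. The tissue value of H2afy was 0.012 without background correction, 0.21 with processed signals, 0.023 with the authors' table, 0.098 by Cy5 alone and 0.0019 with marked spots kept; that of H2afy2 was -0.0079 without background correction and -0.028 with the authors' table; that of Hist1h1c was 0.028 with processed signals and 0.17 with the authors' table. Hist1h4f was -0.28 by Cy5 alone, and H2afx was -0.0011 with the mouse block, where Hist1h1c was -0.27 and called (limma, adjusted p = 0.0483). Averaging probes of a gene gave 0.23 for H2afj in liver. With 1 array left out, values that changed sign ran from -0.020 to 0.15 for Hist3h2a in liver and, between tissues, from -0.042 to 0.044 for H2afy, from -0.054 to 0.043 for H2afx, from -0.0046 to 0.071 for H2afy2 and from -0.20 to 0.0043 for Hist1h1c. The cause of these changes was not tested.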
